A study of Mus musculus with 24 samples.

Results

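The genes described here encode 7 matrix metalloproteinases (MMPs), Mmp2, Mmp8, Mmp9, Mmp12, Mmp13, Mmp14 and Mmp19, and 3 tissue inhibitors of metalloproteinases (TIMPs), Timp1, Timp2 and Timp3. They were taken by symbol from the deposited tables, as 10 of 54429 genes. RNA was sequenced from macrophages grown from the bone marrow of C57BL/6N mice that lacked MAPKAP kinase-2 (MK2 KO) or carried it (MK2 WT). MK2, encoded by Mapkapk2, is a protein kinase activated by p38. There were 4 groups of 6 libraries: MK2 KO cells given murine IL-4 at 10 ng/ml for 24 h (KO M2), MK2 KO cells left unstimulated (KO M0), MK2 WT cells given the same IL-4 (WT M2) and MK2 WT cells left unstimulated (WT M0). In all groups the marrow cells had been grown with murine M-CSF at 10 ng/ml and replated on day 7. The deleted part of Mapkapk2, the number of mice and any pooling of mice were not stated, so p-values measure only the spread between these libraries, which may be technical. The series title concerns angiogenic factors of tumor-associated macrophages, whereas these cells were cultured from marrow.

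MMPs are zinc-dependent proteases that cut proteins of the extracellular matrix and of the cell surface. Most are secreted as inactive proenzymes and gain activity when their propeptide is removed, often by another protease. TIMPs bind the active site of MMPs and block it, so matrix breakdown depends on the balance of both families. Macrophages are a known source of several MMPs in inflamed tissue and tumors, where these proteases can release growth factors held in the matrix.

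Total counts were 7893809 to 13492507 per library. Levels within a gene are given as counts scaled by TMM library sizes (CPM). Mapkapk2, the check of the genotype labels, was at 47.8 to 60.7 CPM in KO M2 and 54.7 to 63.4 CPM in KO M0, against 112.6 to 139 CPM in WT M2 and 100.3 to 138 CPM in WT M0. KO libraries held less Mapkapk2 RNA but were not free of it. Macrophage markers (10 genes such as Csf1r, Cd68 and Lyz2) summed to 12386 to 14953 CPM in KO M2, 12327 to 15342 CPM in KO M0, 14369 to 18419 CPM in WT M2 and 14921 to 19542 CPM in WT M0, with none at 0.

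Of the 10 genes, Mmp13, Mmp12 and Mmp8 lie in a cluster of 10 MMP genes on mouse chromosome 9, over 427.1 kb from 7272514 to 7699585 on mm10. In genome order the cluster holds Mmp13, Mmp12, Mmp1b, Mmp3, Mmp1a, Mmp10, Mmp8, Mmp27, Mmp20 and Mmp7. Counts over all 24 libraries were 579198 for Mmp12, 8292 for Mmp27, 6837 for Mmp8 and 5369 for Mmp13. The remaining cluster genes had 233 counts (Mmp10), 71 (Mmp3), 2 (Mmp7), 1 (Mmp1a) and 0 (Mmp1b and Mmp20). The stretches just upstream of Mmp13, Mmp12 and Mmp8 are shown because these neighbours were all called higher with IL-4 in KO cells. They are RefSeq promoter windows on GRCm38.p6, ended before the RefSeq or GENCODE start, whichever lies first, on the + strand at chr9:7272264-7272513, chr9:7344147-7344380 and chr9:7558179-7558428. Capitals mark a match to the AP-1 motif TGANTCA on either strand.
Mmp13: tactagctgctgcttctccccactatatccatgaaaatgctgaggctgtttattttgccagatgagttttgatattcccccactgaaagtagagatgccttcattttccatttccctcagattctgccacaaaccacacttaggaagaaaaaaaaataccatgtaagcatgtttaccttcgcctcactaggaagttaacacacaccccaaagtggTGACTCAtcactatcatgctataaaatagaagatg
Mmp12: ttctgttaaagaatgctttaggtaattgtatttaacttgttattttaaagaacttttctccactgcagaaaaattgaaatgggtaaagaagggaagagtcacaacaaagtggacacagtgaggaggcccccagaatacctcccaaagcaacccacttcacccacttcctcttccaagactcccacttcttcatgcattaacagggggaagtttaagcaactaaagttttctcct
Mmp8: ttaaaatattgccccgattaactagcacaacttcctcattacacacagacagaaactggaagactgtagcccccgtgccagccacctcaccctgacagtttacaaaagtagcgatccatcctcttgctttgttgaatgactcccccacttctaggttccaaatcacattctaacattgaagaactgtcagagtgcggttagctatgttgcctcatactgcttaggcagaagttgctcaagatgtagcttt
The match upstream of Mmp13 began at position -35 from the start, and the stretches of Mmp12 and Mmp8 held none. A second RefSeq start of Mmp12 had a match at position -44, in a window that is not shown. Of the 10 genes, 7 had a RefSeq promoter, in 8 windows, and these were the only matches in them. The AP-1 motif was in 7.81% of 32851 RefSeq promoters, and the STAT6 motif TTCNNNNGAA, which reads the same on both strands, was in 6.95% of them and in 0 of the 8 windows. Such a match describes letters and shows no binding.

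Per gene length, Mmp12 was far above the other 9 genes. GETMM values, which the authors scaled for gene length and library, averaged 2844 over the 24 libraries for Mmp12, which encodes macrophage elastase. Mmp12 ranked 25 to 53 among all 54429 genes in the 24 libraries and took 0.153% to 0.362% of the counts of a library. Timp2 followed at a mean GETMM of 683 and rank 137 to 280. Far below over all libraries were Mmp19 at 53.5, Mmp14 at 29.5, Mmp8 at 21.3, Mmp13 at 15.0 and Mmp9 at 13.1, and then Timp1 at 6.18, Timp3 at 1.56 and Mmp2 at 0.805. Below Timp2 each gene overlapped the next over the libraries, with GETMM from 23.7 to 106 for Mmp19, 8.87 to 52.8 for Mmp14, 8.98 to 43.6 for Mmp8, 8.64 to 31.1 for Mmp13, 5.78 to 25.9 for Mmp9, 0.205 to 16.04 for Timp1, 0.395 to 3.51 for Timp3 and 0.192 to 1.69 for Mmp2. Their order also differed between the groups, whereas Mmp12 and Timp2 led and Timp3 and Mmp2 came last in all 4. In KO M2 the mean GETMM was 72.4 for Mmp19, 24.1 for Mmp8, 23.8 for Mmp13, 16.4 for Mmp14, 14.3 for Mmp9 and 1.86 for Timp1. In KO M0 it was 28.4 for Mmp19, 19.9 for Mmp14, 16.4 for Mmp9, 11.9 for Mmp13, 11.2 for Mmp8 and 1.40 for Timp1. WT M2 was the group in which the order of the 24 libraries held, with 78.2 for Mmp19, 38.5 for Mmp14, 29.8 for Mmp8, 13.8 for Mmp13, 10.3 for Mmp9 and 9.95 for Timp1. In WT M0 it was Mmp14 that stood highest of the 6, at 43.3, with Mmp19 at 35.2, Mmp8 at 19.9, Timp1 at 11.5, Mmp9 at 11.4 and Mmp13 at 10.6.

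**Figure D1:**
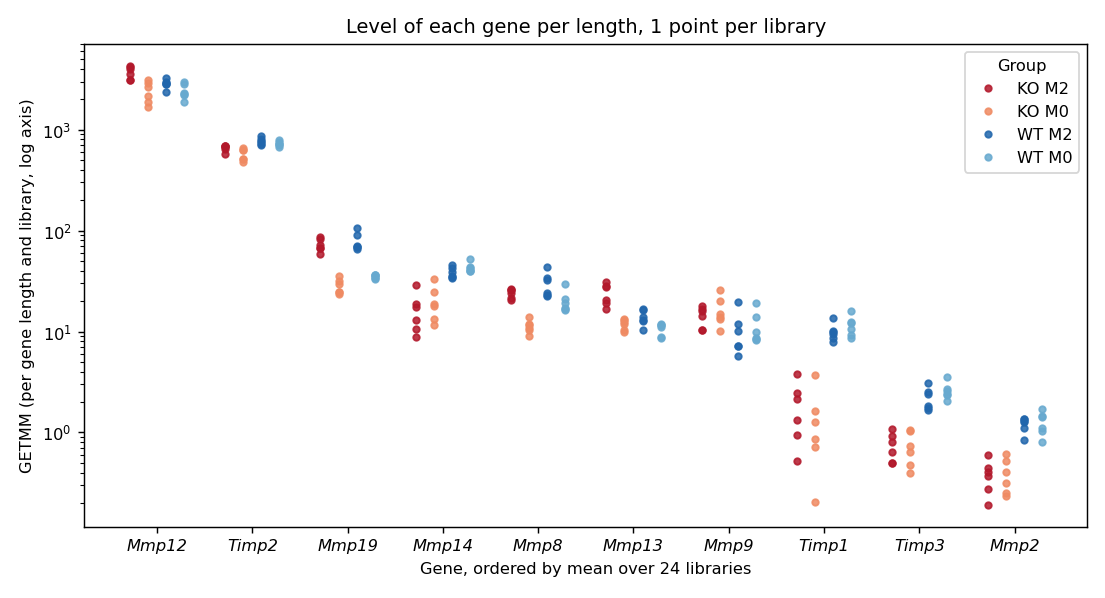
GETMM (per gene length and library, log axis) of the 10 genes in order of their mean over all libraries, with 1 point per library and the groups KO M2, KO M0, WT M2 and WT M0 side by side. Mmp12 (mean 2844) and Timp2 (mean 683) stand above the other 8 genes in all 24 libraries.

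Of the RNA of these 7 MMPs most was Mmp12, and of the RNA of these 3 TIMPs most was Timp2. Mmp12 made up 96.0% ± 0.447 of the summed GETMM of the 7 MMPs in KO M2, 96.4% ± 0.602 in KO M0, 94.3% ± 1.13 in WT M2 and 95.1% ± 0.789 in WT M0 (SD, n = 6 each). Timp2 made up 99.6% ± 0.188 of the summed GETMM of the 3 TIMPs in KO M2, 99.6% ± 0.262 in KO M0, 98.4% ± 0.344 in WT M2 and 98.1% ± 0.368 in WT M0. The ratio of the MMP sum to the TIMP sum was therefore close to that of Mmp12 to Timp2. It was 5.84 ± 0.809 in KO M2, 4.28 ± 0.514 in KO M0, 3.89 ± 0.514 in WT M2 and 3.42 ± 0.482 in WT M0. The 6 KO M2 libraries, at 4.69 to 6.64, all lay above the WT M2 libraries, at 2.87 to 4.28. The KO M0 libraries, at 3.41 to 4.98, overlapped KO M2 as well as WT M0, at 2.64 to 3.96, and WT M2 overlapped WT M0. These ratios are of RNA levels and were not tested.

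The first question was which of the genes changed with IL-4. In KO cells 5 of the 10 were higher in M2 than in M0 and 0 were lower, by edgeR's quasi-likelihood test at an adjusted p of 0.05. Of all 12797 genes tested, 23.6% were called in this comparison, 12.2% as higher and 11.4% as lower. The 5 were the proteases Mmp12, Mmp13, Mmp8 and Mmp19 and the inhibitor Timp2. In WT cells 2 of the 10 were higher in M2, Mmp8 and Mmp19, and 0 were lower, where 16.4% of all genes were called, 8.49% as higher and 7.95% as lower. The median log2 fold change of the 10 genes was 0.34 in KO and 0.01 in WT, beside medians of -0.0038 and -0.016 over all genes. All 6 M2 libraries lay above all 6 M0 libraries for Mmp8, Mmp12, Mmp13 and Mmp19 in KO and for Mmp19 in WT. Groups were apart in this way for 14% of all genes in KO and for 8.16% in WT.

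**Figure D2:**
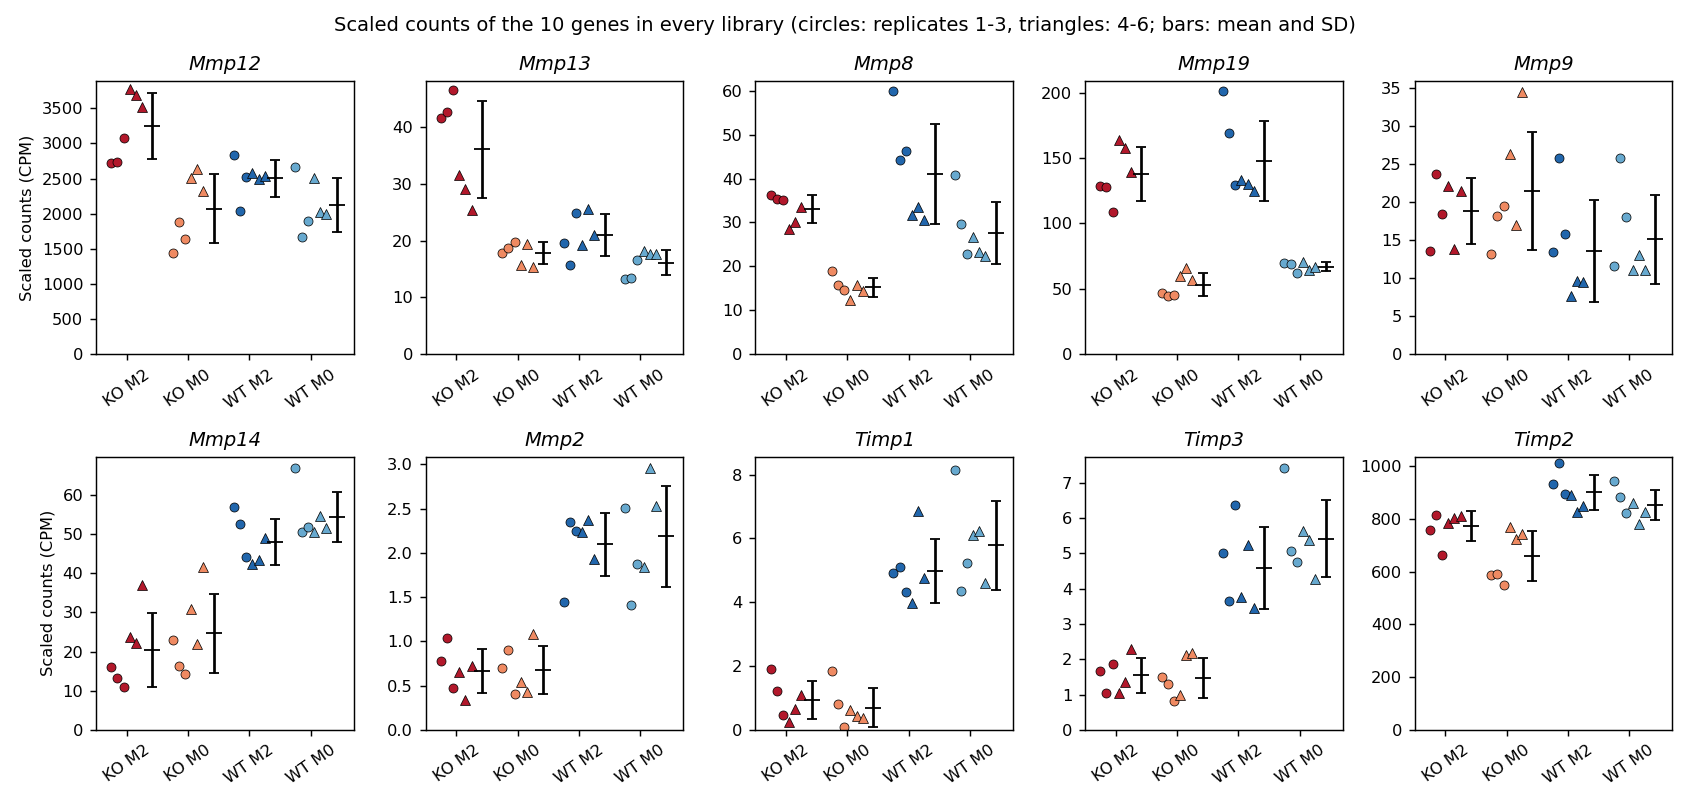
Scaled counts (CPM) of each gene in every library of KO M2, KO M0, WT M2 and WT M0, circles for replicates 1 to 3 and triangles for replicates 4 to 6, with the mean and SD of the 6 libraries to the right of each group. Mmp12, Mmp13, Mmp8 and Mmp19 stand higher in KO M2 than in KO M0 in every library, and Mmp2, Mmp14, Timp1 and Timp3 stand lower in every KO library than in every WT library.

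Mmp12 (chromosome 9, 7344381 to 7369499 on mm10, + strand) encodes macrophage elastase, which cuts elastin and other matrix proteins. Its lowest, median and highest levels were 2720.1, 3296 and 3772 CPM in KO M2, against 1443, 2099 and 2638 CPM in KO M0. The M2 libraries were all above the M0 libraries in KO cells (log2 fold change 0.65, SE 0.14, adjusted p = 0.00083). In WT cells the levels were 2039.5, 2530.4 and 2840.4 CPM in M2 and 1664, 2008 and 2659.85 CPM in M0. The WT groups overlapped, and Mmp12 was not called (adjusted p = 0.262, log2 fold change 0.24, SE 0.14). Of 14 alternative fits, 12 also left it uncalled. With only replicates 4 to 6 in the edgeR fit it was called (0.23, SE 0.07, adjusted p = 0.0497). In the labels 1 M0 and 1 M2 library share a number, whose meaning is not stated. Within these WT pairs Mmp12 was higher in M2 in 6 of 6. With that number as a block in edgeR, Mmp12 was called (log2 fold change 0.25, SE 0.07, adjusted p = 0.0120). The 3' end of Mmp12 overlaps exons of Mmp1b on the opposite strand, which had 0 counts.

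Mmp13 and Mmp8 encode collagenases, which cut fibrillar collagen. Mmp13 (chromosome 9, 7272514 to 7283331, + strand), collagenase-3, was at 25.4, 36.5 and 46.4 CPM (lowest, median, highest) in KO M2 and at 15.3, 18.22 and 19.8 CPM in KO M0, with no overlap (log2 fold change 1.02, SE 0.14, adjusted p = 2.47e-06). Within KO M2, replicates 1 to 3 held 41.5, 42.6 and 46.4 CPM, below which lay replicates 4 to 6 with 31.6, 29.0 and 25.4 CPM. In WT cells Mmp13 was at 15.7, 20.3 and 25.5 CPM in M2 and 13.3, 17.1 and 18.16 CPM in M0. These WT values overlapped, and the difference missed the threshold (log2 fold change 0.37, SE 0.14, adjusted p = 0.0700). It passed when WT M2 replicate 2 (adjusted p = 0.0292) or KO M2 replicate 6 (adjusted p = 0.0477) was left out of the fit. It also passed with the number that M0 and M2 libraries share as a block (adjusted p = 0.0115). Within those WT pairs Mmp13 was higher in M2 in 6 of 6.

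Mmp8 (chromosome 9, 7558456 to 7568485, + strand) is the collagenase best known from neutrophil granules. Its lowest, median and highest levels were 28.4, 34.3 and 36.2 CPM in KO M2 and 12.3, 15.2 and 18.9 CPM in KO M0, which were apart (log2 fold change 1.12, SE 0.16, adjusted p = 8.39e-06). The levels were 30.6, 38.8 and 59.8 CPM in WT M2 and 22.5, 24.96 and 40.9 CPM in WT M0. The WT groups overlapped in the highest M0 library, replicate 1, and Mmp8 was called higher in WT M2 (log2 fold change 0.58, SE 0.15, adjusted p = 0.0103). That call was lost when the 2 WT groups were fitted alone (adjusted p = 0.0512) and without the 3 libraries numbered apart from their set in the labels (adjusted p = 0.0563). Another edgeR fit of all 24 libraries kept replicates 1 to 3 and 4 to 6 apart. There Mmp8 with IL-4 in WT was called in replicates 1 to 3 (0.70, adjusted p = 0.0030). It was not called in replicates 4 to 6 (0.40, adjusted p = 0.165). The difference between the sets was not called (-0.30, SE 0.22). With only replicates 4 to 6 in the fit the call was kept. A neutrophil marker list (12 genes such as S100a8, S100a9 and Ltf, none at 0 in a whole group) summed to 82.1 to 156 CPM in KO M2, 93.2 to 171 CPM in KO M0, 97.9 to 284 CPM in WT M2 and 157 to 243 CPM in WT M0. WT M2 replicate 1 was highest in both Mmp8 and these markers. In the other groups Mmp8 was again highest in replicate 1. The markers were highest there in replicate 4 of WT M0 (243 CPM), replicate 6 of KO M0 (171 CPM) and replicate 2 of KO M2 (156 CPM). Replicate 1 was next highest in each of these groups, at 216, 165 and 154 CPM. Of the 7 neutrophil markers tested, 0 were called in each of the 4 comparisons, and their part in the Mmp8 levels was not tested. The median log2 fold change of these markers was -0.08 for IL-4 in KO and -0.25 for IL-4 in WT, the comparisons in which Mmp8 was higher. It was -0.29 for KO M2 over WT M2 and -0.47 for KO M0 over WT M0, where all 7 had values below 0.

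Mmp19 (chromosome 10, 128790910 to 128800824, + strand), a protease known to cut components of basement membranes, had the largest log2 fold change with IL-4 among the 10 genes in both genotypes. Its lowest, median and highest levels were 108.4, 134 and 164 CPM in KO M2 and 44.3, 51.8 and 66.1 CPM in KO M0 (log2 fold change 1.37, SE 0.12, adjusted p = 3.27e-09). In WT they were 124.6, 131.9 and 201 CPM in M2 and 61.8, 67.8 and 70.4 CPM in M0 (log2 fold change 1.14, SE 0.12, adjusted p = 1.2e-07). M2 and M0 libraries were apart in both genotypes, at about 2.58 and 2.21 times the M0 level. Exons of Mmp19 overlap Tmem198b and the predicted gene Gm47093 on the opposite strand, with 437 to 528 and 5 to 17 counts per group, against 3214 to 8860 for Mmp19. No source used here states whether the counting used strand, so reads of such overlapping genes cannot be told apart with certainty.

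The gelatinases Mmp9 and Mmp2 and the membrane-anchored Mmp14 were not called with IL-4 in either genotype. Mmp9 (chromosome 2, 164940780 to 164955850, + strand), gelatinase B, was at 13.6, 19.9 and 23.7 CPM (lowest, median, highest) in KO M2 and 13.2, 18.8 and 34.5 CPM in KO M0 (log2 fold change -0.19, SE 0.28, adjusted p = 0.713). In WT it was at 7.63, 11.5 and 25.8 CPM in M2 and 11.1, 12.3 and 25.8 CPM in M0 (log2 fold change -0.13, SE 0.29, adjusted p = 0.803). Mmp9 spread widely within each group, and its 95% intervals for IL-4 ran from -0.73 to 0.36 in KO and from -0.70 to 0.43 in WT. Mmp2, gelatinase A, had log2 fold changes of 0.01 (SE 0.29) in KO and -0.06 (SE 0.24) in WT, from 3 to 29 counts per library. For Mmp14 the values were -0.28 (SE 0.25) in KO and -0.17 (SE 0.23) in WT.

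Among the inhibitors only Timp2 was called with IL-4, in KO cells and by a small margin. Timp2 (chromosome 11, 118301069 to 118355740, - strand) encodes a secreted inhibitor that also bridges pro-MMP2 to MMP14 at the cell surface. It was at 664, 795 and 814 CPM (lowest, median, highest) in KO M2 and 550, 659 and 768 CPM in KO M0 (log2 fold change 0.23, SE 0.08, adjusted p = 0.0348). These groups overlapped, and the call was lost, with adjusted p from 0.0591 to 0.102, when KO M0 replicate 1, 2 or 3 or KO M2 replicate 2, 4, 5 or 6 was left out. In WT it was at 828, 893 and 1013 CPM in M2 and 780, 844 and 942 CPM in M0 (log2 fold change 0.08, SE 0.08, adjusted p = 0.539). Timp1 and Timp3 were not called, with log2 fold changes of 0.45 (SE 0.43) and 0.07 (SE 0.25) in KO and -0.22 (SE 0.30) and -0.24 (SE 0.21) in WT.

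**Figure D3:**
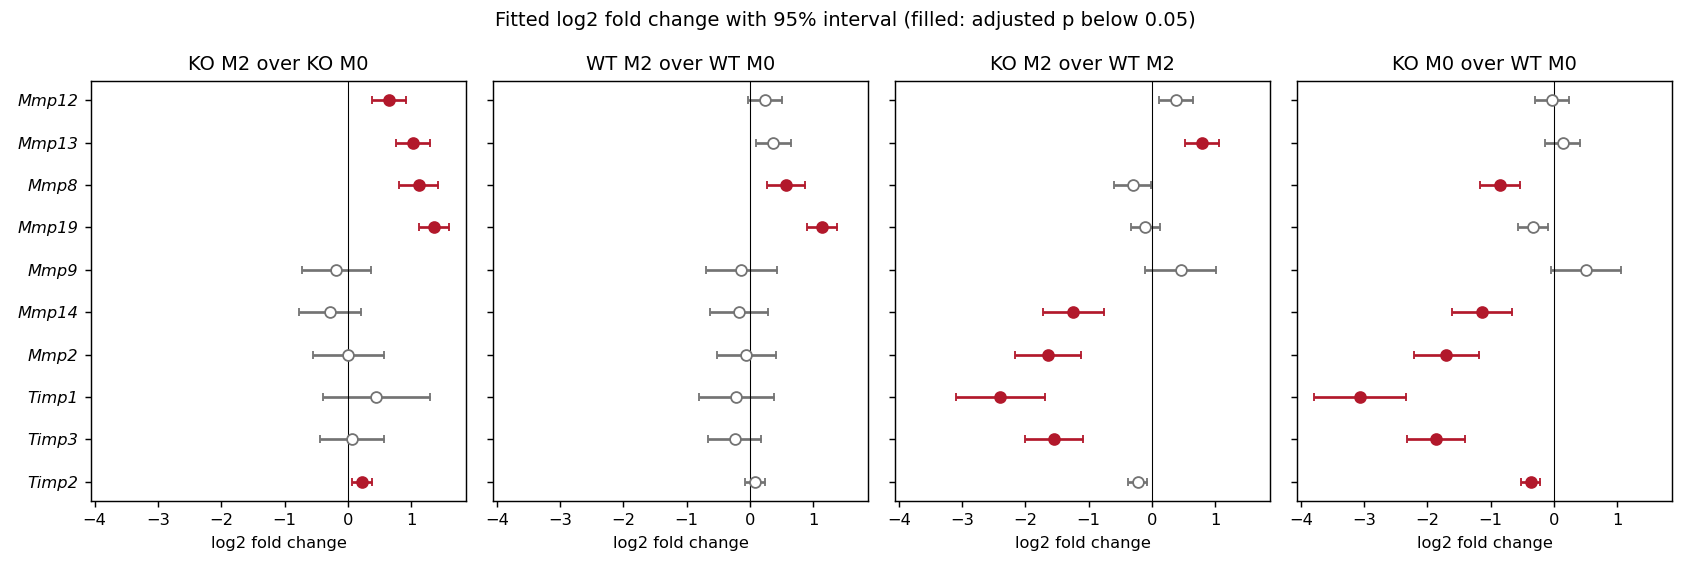
Fitted log2 fold change of each gene with its 95% interval (not adjusted) for KO M2 over KO M0, WT M2 over WT M0, KO M2 over WT M2 and KO M0 over WT M0, filled where the adjusted p was below 0.05. With IL-4 the filled points lie right of 0 (from 0.23 for Timp2 to 1.37 for Mmp19), and between genotypes all but Mmp13 with IL-4 (0.79) lie left of 0, down to -3.06 for Timp1.

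The second question was which of the genes differed by genotype. Without IL-4, 6 of the 10 were lower in KO M0 than in WT M0 and 0 were higher, where 4.52% of all genes were called, 3.42% as lower and 1.1% as higher. The 6 were Timp1, Timp3, Mmp2, Mmp14, Mmp8 and Timp2. With IL-4, 4 of the 10 were lower in KO M2 than in WT M2 (Timp1, Timp3, Mmp2 and Mmp14) and 1 was higher (Mmp13), where 4.59% of all genes were called, 3.09% as lower and 1.51% as higher. The median log2 fold change of the 10 genes was -0.61 without IL-4 and -0.26 with it, beside -0.0069 and 0.0060 over all genes. KO and WT libraries did not overlap for 6 of the 10 genes without IL-4 and for 5 with it, against 3.48% and 3.63% of all genes. The comparisons with and without IL-4 share no library with each other, and each shares 1 KO group and 1 WT group with the IL-4 comparisons.

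Timp1 had the largest log2 fold change between genotypes among the 10 genes. Timp1 (chromosome X, 20870166 to 20874735, + strand) encodes a soluble inhibitor that also binds pro-MMP9. Its lowest, median and highest levels were 0.261, 0.877 and 1.90 CPM in KO M2, against 3.97, 4.84 and 6.85 CPM in WT M2 (log2 fold change -2.40, SE 0.36, adjusted p = 4.58e-05). Without IL-4 they were 0.101, 0.528 and 1.86 CPM in KO M0, against 4.36, 5.68 and 8.16 CPM in WT M0 (log2 fold change -3.06, SE 0.37, adjusted p = 1.69e-06). In each state all KO libraries lay below all WT libraries. The KO values rest on 1 to 17 counts per library, and replicate 1 was the highest KO library in each state. Timp1 overlaps Syn1 on the opposite strand, though no exons of the 2 genes overlap. Syn1 had 2345 to 2926 counts per group, against 40 to 331 for Timp1.

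Timp3 (chromosome 10, 86300372 to 86349506, + strand) encodes the inhibitor that binds to the matrix and also blocks ADAM17 and aggrecanases. It was at 1.04, 1.51 and 2.28 CPM (lowest, median, highest) in KO M2 and 3.45, 4.39 and 6.37 CPM in WT M2 (log2 fold change -1.55, SE 0.23, adjusted p = 5.1e-05). Without IL-4 it was at 0.807, 1.40 and 2.17 CPM in KO M0 and 4.26, 5.22 and 7.40 CPM in WT M0 (log2 fold change -1.86, SE 0.23, adjusted p = 2.85e-06). KO and WT libraries were apart in both states, on 8 to 25 counts per KO library. Exons of Timp3 overlap Syn3 on the opposite strand, which had 8 to 11 counts per group.

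Mmp2 (chromosome 8, 92827291 to 92853420, + strand) was at 0.336, 0.687 and 1.04 CPM (lowest, median, highest) in KO M2 and 1.45, 2.24 and 2.37 CPM in WT M2 (log2 fold change -1.64, SE 0.27, adjusted p = 0.000133). Without IL-4 it was at 0.403, 0.619 and 1.08 CPM in KO M0 and 1.41, 2.19 and 2.95 CPM in WT M0 (log2 fold change -1.70, SE 0.26, adjusted p = 8.11e-05). The groups were apart in both states. Mmp14 (chromosome 14, 54431612 to 54445364, + strand) encodes a protease anchored in the cell membrane, which activates pro-MMP2. It was at 10.9, 19.1 and 36.9 CPM in KO M2 and 42.2, 46.5 and 56.9 CPM in WT M2 (log2 fold change -1.25, SE 0.25, adjusted p = 0.00219). Without IL-4 it was at 14.2, 22.4 and 41.6 CPM in KO M0 and 50.4, 51.6 and 66.9 CPM in WT M0 (log2 fold change -1.14, SE 0.24, adjusted p = 0.00423). All KO libraries lay below all WT libraries, and the KO libraries spread more than the WT libraries.

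Markers of stromal cells moved with the same comparison. A list of 18 stromal markers (collagen genes, Sparc, Bgn, Dcn, Lum, Pdgfra and others) summed to 13.9 to 30.8 CPM in KO M2 and 12.1 to 35.1 CPM in KO M0, against 154 to 213 CPM in WT M2 and 158 to 244 CPM in WT M0. Of the 16 that were tested, 16 were lower in KO in each state, with median log2 fold changes of -3.46 with IL-4 and -3.498 without it, for example Col1a2 at 2.06 CPM in KO M0 against 29.4 CPM in WT M0. Lum and Thy1 had too few counts to be tested. Lum had 2 counts in KO M2, 0 in KO M0, 8 in WT M2 and 1 in WT M0. Thy1 had 6, 16, 13 and 19 counts in the same order. Without IL-4 Thy1 differed little, at a mean of 0.266 CPM in KO M0 and 0.315 CPM in WT M0. KO replicate 1 had the highest marker sum of its group in each state, and also the highest Timp1. Timp3, Mmp2 and Mmp14 were highest in other KO libraries. Mmp14 was highest in replicate 6, at 36.9 CPM in KO M2 and 41.6 CPM in KO M0. The marker sums there were 15.6 and 14.9 CPM, against 30.8 and 35.1 CPM in replicate 1. Fibroblasts and other stromal cells are known to make Timp1, Timp3, Mmp2 and Mmp14. The part of these markers in the lower Timp1, Timp3, Mmp2 and Mmp14 of KO libraries was not tested, and in bulk RNA fewer cells of a type and less RNA per cell cannot be told apart.

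**Figure D4:**
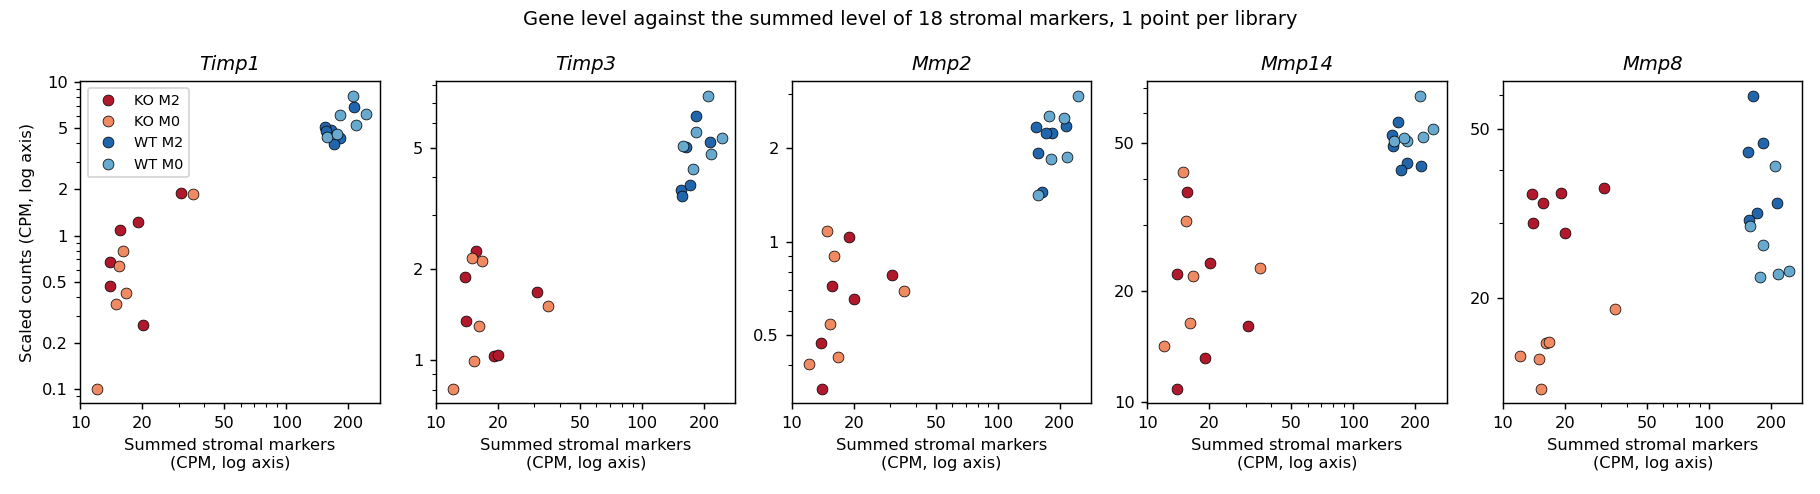
Scaled counts (CPM, log axis) of Timp1, Timp3, Mmp2, Mmp14 and Mmp8 against the summed level of 18 stromal markers (CPM, log axis), with 1 point per library, coloured by the groups KO M2, KO M0, WT M2 and WT M0. KO libraries (12.1 to 35.1 CPM of markers) and WT libraries (154 to 244 CPM) form separate clouds, so no correlation with the marker sum was computed over both. The KO M2 libraries stand at the height of WT libraries for Mmp8.

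Mmp8 differed by genotype without IL-4, as KO M0 (12.3 to 18.9 CPM) lay below WT M0 (22.5 to 40.9 CPM) in every library (log2 fold change -0.85, SE 0.16, adjusted p = 0.00114), the comparison in which the 7 tested neutrophil markers had a median of -0.47. With IL-4 the KO M2 and WT M2 libraries overlapped (log2 fold change -0.31, SE 0.15, adjusted p = 0.403). Timp2 was lower in KO M0 than in WT M0 (log2 fold change -0.37, SE 0.08, adjusted p = 0.00329), again with no overlap. In KO M2 its 6 libraries, at 664 to 814 CPM, also lay below the WT M2 libraries, at 828 to 1013 CPM, but Timp2 was not called there (adjusted p = 0.127, log2 fold change -0.22, SE 0.08). Mmp13 was the one gene of the 10 called higher in KO, which it was with IL-4 (adjusted p = 0.000276, log2 fold change 0.79, SE 0.14), although the lowest KO M2 library, replicate 6 at 25.4 CPM, lay just below the highest WT M2 library, replicate 5 at 25.5 CPM. Without IL-4 Mmp13 was at 15.3 to 19.8 CPM in KO M0 and 13.3 to 18.16 CPM in WT M0 (log2 fold change 0.14, SE 0.14, adjusted p = 0.725). Mmp12, Mmp19 and Mmp9 were not called between genotypes in either state. Their log2 fold changes were 0.38 (SE 0.14), -0.11 (SE 0.12) and 0.45 (SE 0.28) with IL-4, and -0.04 (SE 0.14), -0.33 (SE 0.12) and 0.50 (SE 0.28) without it.

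Replicates 1 to 3 and 4 to 6 carry separate runs of library numbers in the labels, so each genotype difference was also estimated within each of these 2 sets of replicates, in 1 fit of all 24 libraries. Timp1, Timp3 and Mmp2 were called lower in KO in both sets and both states. In this fit 4.88% of all genes were called with IL-4 in replicates 1 to 3 and 3.93% in replicates 4 to 6, and 8.6% and 2.93% without IL-4. With only replicates 1 to 3 in the fit, the calls of Mmp2 (adjusted p = 0.108 with IL-4, 0.0715 without) and of Timp1 with IL-4 (adjusted p = 0.118) were lost. Timp1 had log2 fold changes of -2.04 in replicates 1 to 3 and -2.90 in replicates 4 to 6 with IL-4, and -2.71 and -3.53 without it. Mmp14 was lower by more in replicates 1 to 3, at -1.95 (adjusted p = 7.73e-06) with IL-4 and -1.66 (adjusted p = 4e-05) without it. In replicates 4 to 6 its values were -0.70 (adjusted p = 0.0837) and -0.74 (adjusted p = 0.0662), which missed the threshold. The difference between the sets for Mmp14 with IL-4 missed the threshold too (1.25, SE 0.31, adjusted p = 0.0591).

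The genotype difference itself differed between the sets for Timp2 without IL-4 and for Mmp19 with IL-4. Such a difference between sets was called for 1.81% of all genes without IL-4 and for 0.781% with it. Timp2 in KO M0 relative to WT M0 was -0.62 in replicates 1 to 3 and -0.14 in replicates 4 to 6 (difference 0.47, SE 0.10, adjusted p = 0.0248). In replicates 4 to 6 its call was lost (adjusted p = 0.456, and 0.0907 with only these libraries in the fit). Its KO M0 levels were 586, 592 and 550 CPM in the first 3 replicates and 768, 726 and 743 CPM in the others. Mmp19 in KO M2 relative to WT M2 was -0.46 in replicates 1 to 3 (adjusted p = 0.0158) and 0.25 in replicates 4 to 6 (adjusted p = 0.327; difference 0.70, SE 0.16, adjusted p = 0.0375). For Mmp13 with IL-4 the values were 1.12 (adjusted p = 1.33e-05) and 0.39 (adjusted p = 0.172), with no call of the difference (-0.73, SE 0.20, adjusted p = 0.0843). With only replicates 4 to 6 in the fit the call of Mmp13 was kept. In the fit of both sets, Mmp9 was called higher in KO M0 in replicates 4 to 6 (1.14, adjusted p = 0.0477). It was not called in replicates 1 to 3 (-0.12, adjusted p = 0.896), and this difference between sets was not called (adjusted p = 0.151). Mmp12 was called higher in KO M2 in replicates 4 to 6 (0.53, adjusted p = 0.0305) and not in replicates 1 to 3 (0.21, adjusted p = 0.582), with an adjusted p of 0.655 for the difference. In replicates 1 to 3, Mmp19 was called lower in KO M0 (-0.55, adjusted p = 0.00333) and Timp2 lower in KO M2 (-0.35, adjusted p = 0.00425), and in replicates 4 to 6 they were not (-0.14, adjusted p = 0.702, and -0.096, adjusted p = 0.697). For the IL-4 response, a difference between sets was called for 0 of the 10 genes in each genotype, and for 0% of all genes in KO and 0.0156% in WT. In KO cells the IL-4 response of Mmp13 was 1.21 in replicates 1 to 3 and 0.76 in replicates 4 to 6, with an adjusted p of 0.728 for the difference.

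**Figure D5:**
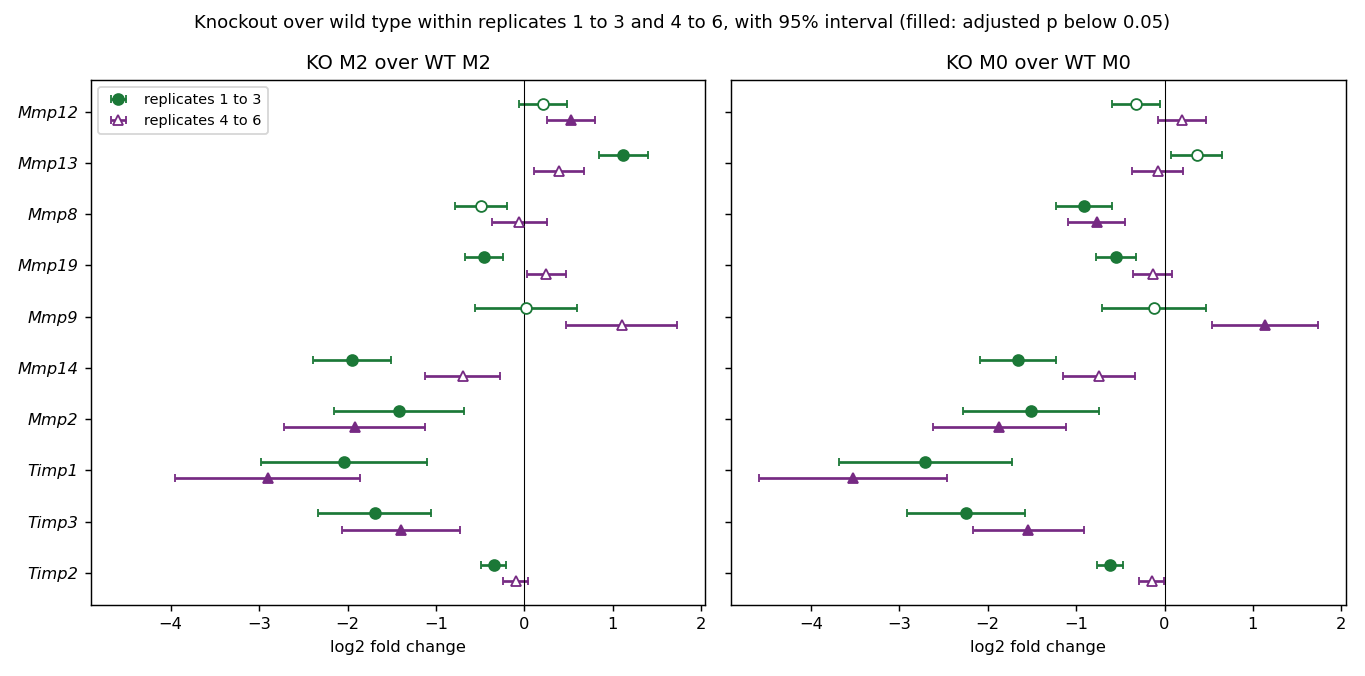
Log2 fold change of each gene with its 95% interval for KO M2 over WT M2 and KO M0 over WT M0, fitted within replicates 1 to 3 (circles) and replicates 4 to 6 (triangles), filled where the adjusted p was below 0.05. Timp1, Timp3 and Mmp2 lie left of 0 in both sets, Mmp14 lies nearer 0 in replicates 4 to 6 (-0.70 and -0.74), and Mmp19 with IL-4 lies on either side of 0 (-0.46 and 0.25).

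The third question was whether the IL-4 response differed between genotypes. By edgeR's quasi-likelihood test 0 of the 10 genes and 0 of 12797 genes were called, while 3 of the 10 and 3.05% of all genes had an unadjusted p below 0.05. These 3 were Mmp13 (KO response minus WT response 0.65, SE 0.19, unadjusted p = 0.00255), Mmp8 (0.54, SE 0.22, unadjusted p = 0.0214) and Mmp12 (0.41, SE 0.19, unadjusted p = 0.0416), each with an adjusted p of 0.9998. DESeq2 called 1 gene over the whole table and limma 3, with 0 of the 10 genes among them. The intervals leave room for differences in both directions for Timp1 (-0.37 to 1.70) and Mmp9 (-0.84 to 0.73). By edgeR with the label number of the paired libraries as a block, the unadjusted p of these 3 genes was lower. It was 0.000262 for Mmp8 (difference 0.55, SE 0.12), 0.000307 for Mmp12 (0.42, SE 0.09) and 0.000277 for Mmp13 (0.63, SE 0.14). Each had an adjusted p of 0.341 in that fit and missed the threshold. A call in KO and not in WT, as for Mmp12, Mmp13 and Timp2, thus does not by itself show that the responses differ.

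Of 16 further MMPs, 3 had enough counts to be tested (Mmp10, Mmp25 and Mmp27), and Mmp27, a neighbour of Mmp8, was the only one called. It was at 27.7 ± 1.84 CPM in KO M2, 29.0 ± 3.81 CPM in KO M0, 38.5 ± 3.09 CPM in WT M2 and 46.5 ± 4.92 CPM in WT M0 (SD, n = 6 each). Mmp27 was lower in KO with IL-4 (log2 fold change -0.48, adjusted p = 0.000394) and without it (-0.68, adjusted p = 1.89e-06), and lower with IL-4 in WT (-0.27, adjusted p = 0.0239). Of 4 other MMP inhibitors 1 was tested, Reck, a membrane-anchored inhibitor, and it was called in none of the comparisons. Among 7 activators of pro-MMPs, 2 were tested, and Furin, the convertase that activates pro-MMP14, was higher with IL-4 in KO (0.25, adjusted p = 0.0426).

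Of 6 cathepsins, which are lysosomal proteases, 4 were higher and 0 lower with IL-4 in each genotype: Ctsl (1.07 in KO, 0.71 in WT), Ctsk (0.78, 0.61), Ctsz (0.60, 0.41) and Ctss (0.44, 0.29). Of all genes tested, 12.2% were higher and 11.4% lower with IL-4 in KO, and 8.49% and 7.95% in WT. By genotype 0 of the 6 cathepsins were called with IL-4 and 1 without it, Ctsl, which was lower in KO M0 than in WT M0 (-0.62, adjusted p = 0.00168). Between genotypes 3.09% of all genes were lower and 1.51% higher in KO with IL-4, and 3.42% and 1.1% without it. Of 10 tested genes for docking, induction and clearance of MMPs, 5 were higher and 1 lower with IL-4 in KO, and 4 were higher in WT. They were led by Itgb3, an integrin subunit (1.77 in KO, 1.41 in WT), with Cd151 (0.81, 0.56), the MMP9-binding Cd44 (0.69, 0.52) and the TIMP1-binding Cd63 (0.53, 0.43). By genotype 1 of the 10 was higher and 1 lower in KO in each state. The lower one was Mrc2, a collagen uptake receptor (-3.55 with IL-4, -3.46 without), on only 10 counts in all of KO M2 and 13 in KO M0. The higher ones were Itgb3 with IL-4 (0.56, adjusted p = 0.0258) and the endocytic receptor Lrp1 without it (0.30, adjusted p = 0.0243). Of 12 tested ADAM and ADAMTS proteases, 4 were lower in KO in each state, among them Adamts5 (-3.87 with IL-4, -2.83 without), Adamts2 (-2.62, -2.78) and Adam19 (-1.62, -1.87). Adamts5 had only 7 counts in all of KO M2 and 6 in KO M0, Adamts2 had 13 and 21, and Adam19 had 790 and 623. One further gene, the sheddase gene Adam17, was higher in KO with IL-4 (0.22, adjusted p = 0.00316), and 0 were higher without it. For IL-4, 3 of the 12 were higher and 1 lower in KO, and 2 were higher and 1 lower in WT, shares near the 23.6% and 16.4% of all genes called in these comparisons. The median log2 fold change of the ADAM and ADAMTS list was 0.25 for IL-4 in KO, 0.05 for IL-4 in WT, -0.14 for KO with IL-4 and -0.24 for KO without it, beside medians within 0.02 of 0 over all genes.

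Genes of osteoclasts, which also make Mmp9 and Mmp14, were measured as a further list. Of 6 tested osteoclast markers, 4 were higher and 1 lower with IL-4 in each genotype, led by Ocstamp (2.84 in KO, 2.13 in WT). Of all genes, 12.2% were higher with IL-4 in KO and 8.49% in WT. The calcitonin receptor Calcr had 0 counts in KO M2, KO M0 and WT M0 and 1 in WT M2. The osteoclast list summed to 2072 to 2829.7 CPM in KO M2, 1073 to 1559 CPM in KO M0, 2122 to 2869.6 CPM in WT M2 and 1348 to 2209 CPM in WT M0, mostly from Atp6v0d2. By genotype 2 of the 6 were higher and 0 lower with IL-4, Dcstamp (1.57 in KO M2 over WT M2) and Ocstamp (1.46), and 1 was higher without it, Dcstamp (1.86). Higher in KO were 1.51% of all genes with IL-4 and 1.1% without it. The part of the osteoclast markers in the IL-4 response of the proteases and in the higher Mmp13 of KO M2 was not tested. Of 9 tested markers of the IL-4 response, 7 were higher with IL-4 in each genotype, with median log2 fold changes of 4.06 in KO and 3.73 in WT, and 2 were higher in KO M2 than in WT M2. Endothelial markers (2 of 7 tested) summed to 5.75 to 11.3 CPM and mast cell and basophil markers (2 of 6 tested) to 4.70 to 9.58 CPM over the 4 groups.

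Over the 24 libraries each gene was set beside the tested gene whose log2 CPM was most like its own, by Pearson correlation, leaving out predicted genes. The libraries share genotype, IL-4 and run of library numbers, so these values describe likeness across 4 groups and are given without a test. Mmp19 was closest to F10 (r = 0.98), Mmp8 to Cacna2d4 (0.95), Mmp13 to Pgm5 (0.93) and Mmp12 to Malt1 (0.92). Mmp2 was closest to Mrc2 (0.97), Timp1 to Loxl2 (0.96), Timp3 to Cnn3 (0.95) and Mmp14 to Pdgfc (0.93). Loxl2 is among the 18 stromal markers, whose sum separates KO from WT libraries. Timp2 was closest to Rxra (0.95), and Mmp9 had the weakest match, Ezh1 (0.79). The next closest were Aebp1 and Antxr1 for Mmp2, Enah and Nid1 for Timp1, Enah and Serpinf1 for Timp3, and Mertk and Apoe for Mmp14.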

How the data were processed

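RNA of macrophages was read in 24 libraries as single ends of 40 bp, which the labels' protocols state. The authors deposited 1 table of expected counts, already in whole numbers. They also deposited GETMM values, a signal in which each count is multiplied by 1 factor for the gene and 1 for the library, checked on 13047 genes. Per the submitters' processing notes, the tools were Bowtie2 2.3.4.1, RSEM 1.3.0, edgeR and CASAVA 2.8.0, and the build was mm10. Each column was assigned through its name in the labels, and 0 columns were left over.

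Genes were kept by filterByExpr at a minimum count of 10 (12797 genes, 99.8% of counts) and scaled by TMM. The 5 contrasts used edgeR 4.0.16 under R 4.3.3 (robust glmQLFit and glmQLFTest), in 1 fit of the 4 groups with no covariate, with Benjamini-Hochberg adjustment over all genes and a threshold of 0.05. SEs were derived from F and the fold change, and 95% intervals from the SEs. GETMM was used only for levels between genes and the alternative in limma 3.58.1, and DESeq2 1.42.0 was another alternative. The steps were tested on simulated counts. Library pairs within a group differed by more than sampling noise (chi-square per degree of freedom 2.62 to 73.9).

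The 10 genes and all lists were chosen with earlier results of these data known. All 10 are given in every comparison. Of each list, counts and up to 4 called genes with the largest fold change are named. Lum, Thy1, Col1a2, Adam17 and Calcr were picked with their values in view. Gene positions follow GENCODE M21 on mm10, and promoters RefSeq on GRCm38.p6. Alternatives were RLE factors, DESeq2, no count filter, CPM of at least 1 in 6 libraries, only 2 groups, a term for the run of library numbers, leaving out 3 libraries numbered apart, limma on log2(GETMM + 1), blocks, replicates 1 to 3 or 4 to 6 only, and each library left out. The fit of both sets of replicates at once was chosen after seeing the data.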

Additional observations from a re-analysis of the deposited data

Results flagged for a closer look

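Each of the 10 genes was examined in each group of 6 libraries for a sample far from the others, as 40 sets. In 1 of them a library stood apart: Mmp14 in WT M0 replicate 1 was at 66.9 CPM, against 54.6 CPM in the next library and 50.4 CPM in the lowest. Chance flags about 1 in 20 such sets. Without this library Mmp14 was still lower in KO M0 than in WT M0 (adjusted p = 0.0132 by edgeR, log2 fold change -1.07, SE 0.25).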

How the results depend on the processing

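The fall of Timp1, Timp3, Mmp2 and Mmp14 in KO and the rise of Mmp8, Mmp12, Mmp13 and Mmp19 with IL-4 in KO kept their direction under every alternative run, and none of these calls was lost when 1 library was left out. Fitted on replicates 1 to 3 only, Mmp2 (adjusted p = 0.108 with IL-4, 0.0715 without) and Timp1 with IL-4 (0.118) lost their calls in KO, and on replicates 4 to 6 only Mmp14 did (0.137 and 0.0971), with fewer libraries by construction. Mmp19 in KO with IL-4 reversed in replicates 4 to 6 only (0.25, adjusted p = 0.0304, against -0.11 in all), where the cause was not tested. On log2(GETMM + 1) the fall of Mmp2 with IL-4 was -0.67 in place of -1.64, since the added 1 understates changes of low genes. In order of level by CPM, not scaled for length, Timp1 was at place 9 and Timp3 at place 8. The low counts of Mmp2, Timp1 and Timp3 limit the precision of their fold changes, and intervals cover no cause of error that all libraries share.

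For IL-4 in KO, 1472 genes were called in replicates 1 to 3 only, against 3024, and leaving out 1 library gave 2652 to 3251. For IL-4 in WT, replicates 1 to 3 only gave 857 genes against 2103, and 1 library left out gave 1755 to 2276. A fit of only 2 groups left 1 of the 10 genes higher with IL-4 in WT, as Mmp8 missed the threshold (adjusted p = 0.0512). Leaving out the 3 libraries numbered apart did the same (0.0563) and called Mmp13 (0.0357). For KO with IL-4, 919 genes were called with a term for the run of library numbers, 305 in replicates 1 to 3 only, 1056 in replicates 4 to 6 only, and 489 to 659 with 1 library left out, against 588. Of the 10 genes, 2 were then higher with only 2 groups (Mmp12, adjusted p = 0.0460), and 2 were lower in replicates 1 to 3 only. In replicates 4 to 6 only, 4 were higher, with Mmp9, Mmp12 and Mmp19 beside Mmp13. For KO without IL-4, the counts were 1044 with the term, 956 in replicates 4 to 6 only, and 444 to 660 with 1 library left out, against 579, and 1 of the 10 genes, Mmp9, was higher in replicates 4 to 6 only. The difference between the IL-4 responses was called for 1 gene by DESeq2, 3 by limma and 21 in replicates 4 to 6 only, and for 0 with 1 library left out. The rise of Timp2 with IL-4 in KO was also lost with no count filter (0.0509), with only 2 groups (0.0690), without the 3 libraries numbered apart (0.0546) and in replicates 4 to 6 only (0.169).

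Libraries with the same replicate number did not deviate together in every pair: the correlation was -0.04 to 0.26 between KO M2 and KO M0, 0.01 to 0.35 between WT M2 and WT M0, -0.07 to 0.48 between KO M2 and WT M2 and -0.30 to 0.17 between KO M0 and WT M0. Libraries correlated best with their own number in 4, 3, 3 and 2 of 6 pairs. With the replicate number as a block, 3194, 2262, 672, 666 and 0 genes were called for IL-4 in KO, IL-4 in WT, KO with IL-4, KO without it and the difference between responses, and none of the calls among the 10 genes changed. With the number that 1 M0 and 1 M2 library share in the labels as a block, Mmp14 was called lower with IL-4 in KO (-0.28, adjusted p = 0.00857), so 1 of the 10 genes was lower there. In WT 4 of the 10 were then higher, with Mmp12 (adjusted p = 0.0120) and Mmp13 (0.0115) added, both higher with IL-4 in 6 of 6 WT pairs of libraries, and the difference between responses was called for 2 genes. Over all genes this fit called 3446 for IL-4 in KO and 2622 in WT, more than the 3024 and 2103 without a block. The shared number is nested in genotype, so genotype differences could not be fitted with it.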
